A study of Homo sapiens with 9 samples.

Results

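Genes that span over 250 kb of the genome and were expressed in A549 cells were examined after Cyclin K knockdown. The members were the genes with a feature of their own in the deposited tables, an end minus start plus 1 over 250000 bases, and a mean of at least 1 FPKM over all 9 libraries, a unit (FPKM) that divides the fragments of a gene by its exon length and the library's depth. Of the 29736 genes in the tables, 935 spanned over 250 kb and 414 of these reached the mean level, while 521 did not. The level was taken over the treated libraries as well as the controls, so that a gene could enter through the group in which it was high: 360 members had a mean of at least 1 FPKM in each of the 3 groups, 46 were below 1 with scrambled siRNA, and 0 were below 1 with both Cyclin K siRNAs. All 414 members passed the filter on low values used for testing, and because of this choice the counts over members below are given as a description.

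A549, a human lung cancer cell line of epithelial origin, was transfected for 48 h with 50 nM of a scrambled siRNA (siCtrl), siCyclin K#1 or siCyclin K#2, and 3 libraries of each group were sequenced. Both Cyclin K siRNAs are directed at CCNK, and the scrambled siRNA is the only control, shared by every comparison with it. The labels do not say whether the libraries of a group came from separate transfections, so that p-values measure the spread between these libraries. In such bulk RNA, fewer cells with a transcript and less transcript per cell cannot be told apart.

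Cyclin K is the regulatory partner of CDK12 and CDK13, kinases that phosphorylate the tail of RNA polymerase II while it moves along a gene. The polymerase has to travel the whole span of a gene, introns included, before a full-length mRNA can be made, and a long gene offers many places where the transcript can end early. Most very long human genes owe their span to a few huge introns, and many encode adhesion molecules, cytoskeletal adaptors, signaling enzymes and transcription factors.

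CCNK was knocked down in each treated library. It was at 6.90, 7.06 and 7.10 FPKM with scrambled siRNA, 0.891, 0.816 and 0.720 after siCyclin K#1 and 0.809, 0.920 and 0.802 after siCyclin K#2. Over both siRNAs the log2 fold change came to -2.94, with a standard error (SE) of 0.10 and an adjusted p of 1.7e-07 (limma, Benjamini-Hochberg). Its partner CDK12 rose by 1.26 on the log2 scale (adjusted p = 6.9e-06 from limma), from 7.91 ± 0.510 FPKM to 19.7 ± 0.229 and 18.4 ± 2.14 (SD, n = 3 each), while CDK13 had a log2 fold change of 0.23 that did not pass. Depth was alike in all libraries, at 31333749 to 33767961 reads or fragments (the files do not say which) recovered from the FPKM steps. Of the epithelial markers checked, KRT8 and KRT18 were at 49.7 to 105 FPKM in every library, CDH1 was at 1.19 to 4.6, and EPCAM and KRT19 were at or below 0.279. Markers of blood and endothelial cells summed to at most 1.02 FPKM in any library.

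Of the 414 members, 403 were protein coding and 11 were noncoding RNAs. They lay on 23 chromosomes, with 211 on the plus and 203 on the minus strand, and 395 had the same GRCh38 coordinates in GENCODE 29 as in the tables. Their spans ran from 251.1 to 1553.1 kb, with a median of 353.2 kb, against a median of 27317 bases in the 9929 genes of at most 250 kb at the same mean level. The merged exons had a median of 9289 bases in members and 4686 in those shorter genes. The added span lay mostly in introns: the longest intron of a member had a median of 146517 bases, or 38.3% of the span. Levels were modest, with a median of 3.90 FPKM and 72 members at 10 FPKM or more, and the shorter genes had a median of 6.26 FPKM. For 25 members no single annotated transcript exceeded 250 kb, so that the span is a union of shorter transcripts.

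The sequences below show what the siRNAs target and the windows around an annotated transcription start of the strongest responders. Which start was used in these cells was not measured. Each siRNA pairs with a stretch of coding sequence of CCNK, here read from transcript CCNK-201 on chromosome 14 of GRCh38. Capitals mark the bases opposite positions 2 to 8 of the guide strand, the seed, which can also pair with other mRNAs. The site of siCyclin K#1 is split by an intron, with its segments at chr14:99500861-99500871 and chr14:99501356-99501363, and that of siCyclin K#2 lies at chr14:99500807-99500825, both on the plus strand.
siCyclin K#1 target: gcaactcaaagGTGATAAa
siCyclin K#2 target: caagtttgattTACAGGTa

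Promoter windows of 300 bases, from 250 before to 50 after a transcription start of RefSeq (GRCh38.p14), were found for 341 members, taking the start nearest to the 5′ end of the gene. For 279 of these the start was within 1000 bases of that end. The windows of the 3 members with the greatest rise and the 3 with the greatest fall over both siRNAs are printed 5′ to 3′ on the strand of the gene, with each CG dinucleotide in capitals, since CG-dense windows are typical of promoters used in many tissues. They lie at chr13:67230287-67230586 on the minus strand (PCDH9), chr6:107459515-107459814 on the minus strand (PDSS2), chr3:188152771-188153070 on the plus strand (LPP), chr12:77830644-77830943 on the plus strand (NAV3), chr14:33951025-33951324 on the minus strand (EGLN3) and chr11:122422822-122423121 on the minus strand (MIR100HG).
PCDH9: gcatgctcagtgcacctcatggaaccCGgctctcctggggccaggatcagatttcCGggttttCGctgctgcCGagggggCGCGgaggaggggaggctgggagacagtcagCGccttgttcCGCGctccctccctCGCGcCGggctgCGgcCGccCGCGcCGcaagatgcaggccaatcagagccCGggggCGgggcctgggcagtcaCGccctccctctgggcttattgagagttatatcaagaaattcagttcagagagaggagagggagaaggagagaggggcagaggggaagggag
PDSS2: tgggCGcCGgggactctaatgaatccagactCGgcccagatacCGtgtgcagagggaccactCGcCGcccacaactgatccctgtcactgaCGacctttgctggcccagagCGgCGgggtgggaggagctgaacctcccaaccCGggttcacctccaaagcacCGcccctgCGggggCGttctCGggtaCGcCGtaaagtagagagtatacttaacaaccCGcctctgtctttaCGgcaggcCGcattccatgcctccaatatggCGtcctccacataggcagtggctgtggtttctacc
LPP: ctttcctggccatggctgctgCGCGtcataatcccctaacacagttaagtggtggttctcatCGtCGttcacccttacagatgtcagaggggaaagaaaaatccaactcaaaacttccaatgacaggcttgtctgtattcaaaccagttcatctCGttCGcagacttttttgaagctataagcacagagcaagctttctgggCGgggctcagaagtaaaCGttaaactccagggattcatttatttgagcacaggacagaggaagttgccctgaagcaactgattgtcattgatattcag
NAV3: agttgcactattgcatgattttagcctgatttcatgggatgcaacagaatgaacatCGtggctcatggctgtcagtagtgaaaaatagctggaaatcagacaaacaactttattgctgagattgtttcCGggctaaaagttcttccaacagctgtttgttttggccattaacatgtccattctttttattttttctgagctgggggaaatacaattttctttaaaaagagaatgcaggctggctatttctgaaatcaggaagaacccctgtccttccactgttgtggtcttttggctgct
EGLN3: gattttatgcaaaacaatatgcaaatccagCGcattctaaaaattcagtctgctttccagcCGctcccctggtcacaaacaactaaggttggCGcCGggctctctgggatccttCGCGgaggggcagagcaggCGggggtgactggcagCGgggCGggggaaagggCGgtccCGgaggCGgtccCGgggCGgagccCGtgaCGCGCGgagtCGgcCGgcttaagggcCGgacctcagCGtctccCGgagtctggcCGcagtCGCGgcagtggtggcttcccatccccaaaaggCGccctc
MIR100HG: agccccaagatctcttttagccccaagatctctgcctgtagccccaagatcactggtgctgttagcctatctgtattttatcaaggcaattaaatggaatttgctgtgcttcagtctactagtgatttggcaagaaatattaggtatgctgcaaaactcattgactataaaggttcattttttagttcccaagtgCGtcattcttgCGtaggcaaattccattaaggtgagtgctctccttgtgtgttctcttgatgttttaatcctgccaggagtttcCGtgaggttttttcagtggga

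The windows of PCDH9 and PDSS2 held 20 CG dinucleotides each, and that of LPP held 8. Among the falls, EGLN3 held 27, NAV3 held 2 and MIR100HG held 3. RefSeq lists 7 starts for LPP, 6 for MIR100HG and 2 for NAV3, and only the window of the start nearest to the 5′ end is printed. Members had a median of 27.0 CG dinucleotides, as did the 7161 shorter genes with a window, and 14 was the median over all 35116 windows of the table. TATAAA, searched on both strands, was in 7.6% of member windows, 5.0% of the windows of shorter genes and 11.5% of all windows, and of the printed windows only that of MIR100HG held it. CCAAT was in 32% and GGGCGG in 66.6% of member windows, against 37.9% and 73.2% of the windows of shorter genes and 34.6% and 45% of all windows. Among the 176 members with a window that rose with both siRNAs the median was 28.0 CG dinucleotides, with TATAAA in 8.0% and CCAAT in 31.2% of windows. Among the 19 that fell it was 24.0, with TATAAA in 15.8% and CCAAT in 15.8%, and these differences were not tested. The table may not hold every start of a gene, so that distances to the nearest start are those to the starts it lists. For 40 members this start lay over 50000 bases inside the gene. In EGLN3 it lay 511.7 kb inside a span of 538.5 kb, so that only 26.8 kb remained from that start to the end, and in NAV3 it lay 506.3 kb inside, which left 382.1 kb. It left 100.9 kb in RUNX1, 117.3 kb in VAV3 and 112.3 kb in PDE3A, which are described further on. At most 250 kb remained in 20 members, with a median log2 fold change over both siRNAs of 0.53. Of these 55.0% were called higher and 15.0% lower at an adjusted p under 0.05 from limma. In the 321 with over 250 kb left the median was 0.42, with 51.4% higher and 4.98% lower. Of all features 17.0% were higher and 11.5% lower, and the difference between these sets was not tested.

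More members were higher than lower after Cyclin K knockdown. With the 6 siCyclin K libraries against the 3 scrambled libraries, 206 members (49.8%) rose and 26 (6.28%) fell at an adjusted p under 0.05 from limma, and 182 did not pass. Over all 21048 features tested, 17.0% were called higher and 11.5% lower, and among the 11243 features with a mean of at least 1 FPKM these shares were 25.2% and 16.9%. The median log2 fold change of the members was 0.39, against 0.05 in the shorter genes and 0.24 in the 1399 genes of 100 to 250 kb. By the rule stated in the methods, more than a 3-fold change with p under 0.01 before adjustment, 19 members (4.59%) were called higher and 0 lower, where 1.43% and 0.865% of all features were, and 1.63% and 0.578% at a mean of at least 1 FPKM. The share of members called higher by this rule fell to 1.93% with a pseudocount of 0.5 and 0.966% with a pseudocount of 1. Shares over all features with these pseudocounts are not given here, so these values describe the members only. All 6 siCyclin K libraries lay above all 3 scrambled libraries for 228 members and below them for 37, and the groups overlapped for 149. Over all features 18.9% lay above and 13.7% below, and at a mean of at least 1 FPKM 27.5% and 20.2%.

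The shift was seen in each library. The median log2 level of the members, relative to the mean of the scrambled libraries, was -0.00, -0.01 and 0.02 in the controls themselves. It was 0.45, 0.48 and 0.48 after siCyclin K#1, and 0.36, 0.36 and 0.34 after siCyclin K#2. The 3 groups did not overlap in this median, and its SD between replicates was 0.0129. The median over all features tested was also above the scrambled libraries, by 0.09 to 0.13 with siCyclin K#1 and 0.01 to 0.03 with siCyclin K#2. Over features with a mean of at least 1 FPKM it was above them by 0.07 to 0.08 and 0.04 to 0.05. The excess of the members over either set is smaller than the first values by that much. When genes over 250 kb were chosen on the scrambled libraries alone, the treated libraries were left out of the choice. This gave 370 genes, not all of them members, with a median of 0.33, and 44.9% of them were higher and 7.57% lower.

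**Figure D1:**
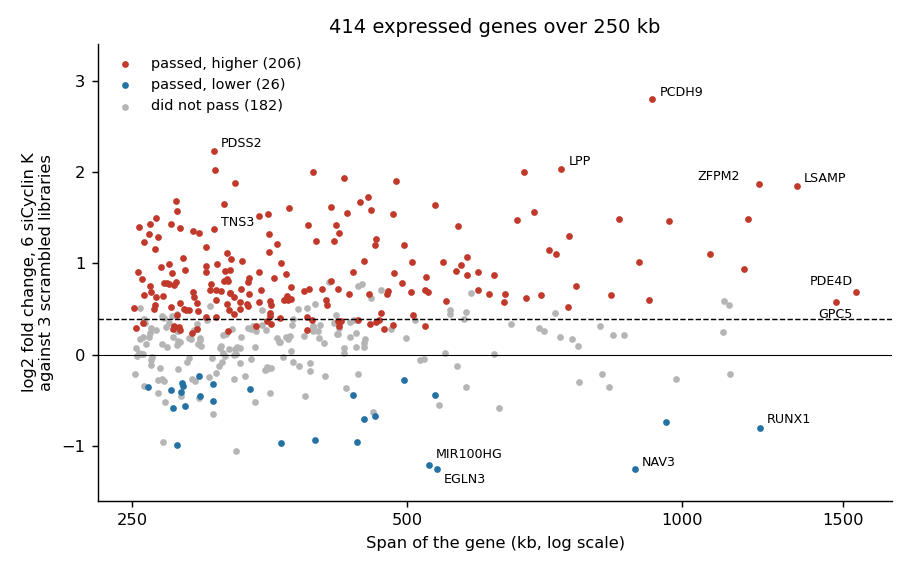
Span of each of the 414 members in kb (log axis) against its log2 fold change, with the 6 siCyclin K libraries against the 3 scrambled libraries; red and blue points passed at an adjusted p under 0.05 from limma, gray points did not, and the dashed line is the median of the members, 0.39. There are 206 red and 26 blue points, and PCDH9 stands highest at 2.79.

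Longer genes had higher median fold changes, from the shortest to the longest. Among genes with a mean of at least 1 FPKM, the median log2 fold change over both siRNAs was -0.13 in 2529 genes of up to 10 kb, 0.05 at 10 to 30 kb, 0.07 at 30 to 100 kb and 0.24 at 100 to 250 kb. It was 0.35 in the 331 members of 250 to 500 kb, 0.57 in the 71 of 500 to 1000 kb and 0.64 in the 12 over 1000 kb. The share called higher went from 15.7% in the shortest class to 48.6%, 53.5% and 58.3% in the 3 classes of members, and the share called lower from 26.2% to 6.04%, 7.04% and 8.33%. With genes chosen on the scrambled libraries alone, the 3 classes held 300, 63 and 7 genes, with medians of 0.31, 0.47 and 0.55, and 44%, 49.2% and 42.9% were called higher, so that the share did not climb through to the longest class. Within the members these classes overlap widely: the quartiles of the genes of 250 to 500 kb were 0.08 and 0.72, and those of the genes of 500 to 1000 kb were 0.13 and 0.91. Across the 10343 genes of this level, Spearman's rank correlation between span and log2 fold change was 0.22, and 0.13 among the 414 members, with all genes measured in the same libraries. The longest intron gave 0.21 across genes, near the value of span, and 0.08 among members. Exon length gave 0.15 across genes and -0.01 among members, the highest exon count of a transcript 0.16 and -0.05, and mean level -0.09 and -0.13. In genes with 5 to 10 kb of exon the median went from -0.10 at up to 10 kb of span to 0.23 at 100 to 250 kb, 0.33 at 250 to 500 kb and 0.62 at 500 to 1000 kb. With 2.5 to 5 kb of exon it was 0.31 in 208 genes of 100 to 250 kb and 0.30 in 37 of 250 to 500 kb, where 40.9% and 37.8% were called higher. Within classes of mean level the order did not always hold among members. From 250 to 500 kb to 500 to 1000 kb the median went from 0.53 to 0.45 at 1 to under 2 FPKM. It went from 0.38 to 0.65 at 2 to under 5 FPKM and from 0.38 to 0.59 at 5 to under 10 FPKM. At 10 FPKM or more it was 0.27 in 64 genes and 0.25 in 5.

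**Figure D2:**
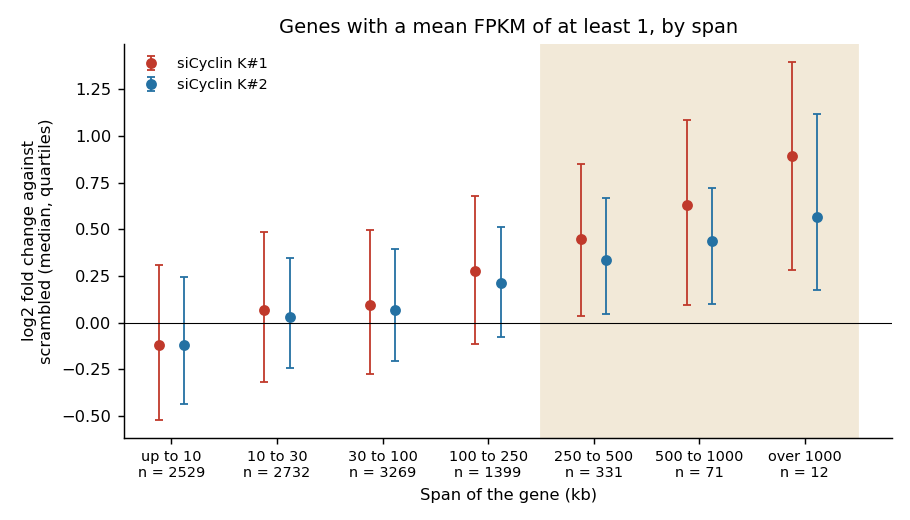
Median log2 fold change against scrambled siRNA (points) with the quartiles of the genes (bars) by span class in kb, for siCyclin K#1 and siCyclin K#2, among genes with a mean of at least 1 FPKM; the shaded classes are the members. The medians rise from -0.12 with each siRNA in the shortest class to 0.90 (siCyclin K#1) and 0.56 (siCyclin K#2) over 1000 kb, while the quartiles overlap between neighboring classes.

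The 5 longest members did not move as one. PDE4D, a cAMP phosphodiesterase and the longest at 1553.1 kb (chr5:58969038-60522120), was at 7.34, 7.19 and 7.44 FPKM with scrambled siRNA, 12.8, 12.8 and 12.1 after siCyclin K#1 and 12.1, 11.8 and 9.77 after siCyclin K#2. All treated libraries were above all controls, and the mean difference was 0.69 on the log2 scale (SE 0.09, adjusted p = 0.00036 from limma). GPC5, a glypican that carries heparan sulfate at the cell surface, spans 1475.1 kb and rose by 0.58, from 0.811 ± 0.114 FPKM to 1.34 ± 0.0540 and 1.17 ± 0.129 (SD, n = 3 each), with an adjusted p of 0.011 from limma that was lost without scrambled replicate 1. LSAMP, a cell adhesion protein anchored to the outer membrane, spans 1337.0 kb and is described with the differences between siRNAs. ZFPM2, a cofactor of GATA transcription factors of 1213.8 kb, was at 0.0731, 0.853 and 1.34 FPKM with scrambled siRNA, 1.73, 1.63 and 1.68 after siCyclin K#1 and 2.73, 2.89 and 2.71 after siCyclin K#2. Its groups did not overlap, but the scrambled libraries were far apart, and its call (log2 fold change 1.87, adjusted p = 0.032 from limma) was lost when any siCyclin K#2 library was left out. RUNX1, a transcription factor of blood formation that spans 1216.9 kb, fell by 0.81 on the log2 scale, from 1.99, 2.31 and 1.88 FPKM in the controls to 1.01, 0.756 and 1.14 after siCyclin K#1 and 1.25, 1.45 and 1.32 after siCyclin K#2 (adjusted p = 0.0095 from limma). This call was lost without scrambled replicate 2.

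PCDH9 had the greatest rise of all members. It encodes a protocadherin, a calcium-dependent adhesion protein, and spans 927.6 kb (chr13:66302834-67230445, minus strand), with a longest intron of 593993 bases. It was at 0.564, 0.537 and 0.538 FPKM with scrambled siRNA, 6.01, 5.67 and 5.71 after siCyclin K#1 and 3.47, 3.11 and 3.37 after siCyclin K#2. The 3 groups were fully apart, and the means were 10.6-fold and 6.07-fold above scrambled siRNA. On the log2 scale the rise over both siRNAs was 2.79 (SE 0.23, adjusted p = 2.7e-05 from limma). PCDH9 was below 1 FPKM in the controls and became a member through the treated libraries, as did 46 members in all, of which 40 were called higher. Its rise is therefore in part fixed by the choice of members. The same limit holds for PDSS2, RFX3, GRIK2, VAV3, RBFOX3, LSAMP, HMCN1, GPC5 and ZFPM2. Their means with scrambled siRNA were also below 1 FPKM.

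PDSS2, a subunit of the enzyme that makes the side chain of coenzyme Q, followed with a rise of 2.23 (SE 0.10, adjusted p = 8.8e-07 from limma). It was at 0.996, 1.02 and 0.966 FPKM with scrambled siRNA, 4.94, 5.02 and 6.01 after siCyclin K#1 and 5.18, 4.49 and 4.6 after siCyclin K#2, so that the treated groups overlapped each other and lay far above the controls. LPP, a LIM domain protein of focal adhesions spanning 737.4 kb, went from 1.65, 1.87 and 1.67 FPKM in the controls to 12.2, 16.9 and 10.9 after siCyclin K#1 and 4.30, 4.27 and 3.90 after siCyclin K#2. The siCyclin K#1 libraries were the highest and the most spread, and the log2 fold change over both siRNAs was 2.04 (adjusted p = 0.0096 from limma). RFX3, a transcription factor of ciliated cells, rose by 2.02, from 0.378, 0.458 and 0.422 FPKM in the controls to 2.53, 2.75 and 2.5 after siCyclin K#1 and 1.52, 1.56 and 1.54 after siCyclin K#2 (adjusted p = 0.00014 from limma). GRIK2, a subunit of the kainate glutamate receptor, rose by 2.00 in the same order of groups, with means of 0.711 ± 0.0997, 4.27 ± 0.173 and 2.30 ± 0.0875 FPKM (SD, n = 3 each). VAV3 rose by 2.00, from 1.01, 1.27 and 0.608 FPKM in the controls to 4.42, 4.74 and 4.37 after siCyclin K#1 and 3.68, 3.67 and 3.39 after siCyclin K#2. CAMK1D, a kinase activated by calcium and calmodulin, rose by 1.9, from 3.42 ± 0.257 FPKM to 14.8 ± 0.405 and 11.4 ± 0.364 (SD, n = 3 each). In each of these genes every treated library lay above every scrambled library.

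RBFOX3, a splicing regulator known as the neuronal marker NeuN, rose by 1.93 on the log2 scale (adjusted p = 2.6e-05 from limma). It was at 0.291, 0.359 and 0.218 FPKM with scrambled siRNA, 1.36, 1.62 and 1.5 after siCyclin K#1 and 1.23, 1.18 and 1.36 after siCyclin K#2. The 4 neuronal markers checked, of which RBFOX3 and SYT1 are members, had sums between 7.13 and 9.38 FPKM in the controls, between 17.4 and 19.8 after siCyclin K#1 and between 10.7 and 20.2 after siCyclin K#2. SNAP25 was at 1.37 ± 0.0544, 5.30 ± 0.337 and 0.982 ± 0.05 FPKM (SD, n = 3 each), so that the markers did not move together, and their part in the result was not tested.

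**Figure D3:**
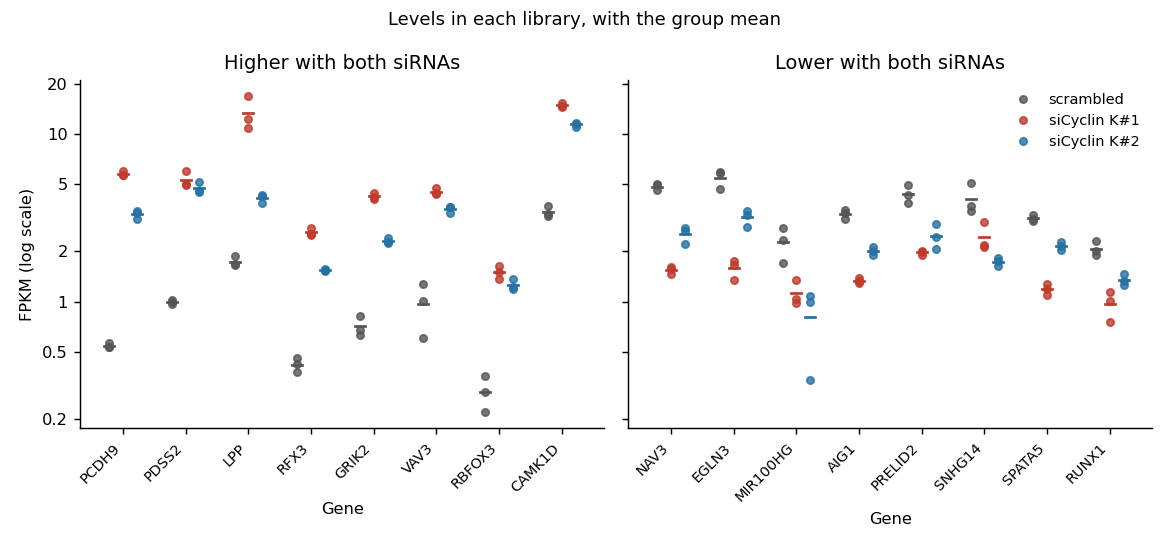
FPKM (log axis) in each of the 9 libraries (points) with the group mean (bars) for the 8 members with the greatest rise and the 8 with the greatest fall over both siRNAs, among those that passed with all treated libraries on one side of the controls. By mean, siCyclin K#1 is farther from the controls than siCyclin K#2 except in MIR100HG and SNHG14.

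Falls were fewer and smaller. NAV3, a microtubule-binding protein of the navigator family (888.4 kb, chr12:77324641-78213008), had the greatest fall, from 5.01, 4.64 and 4.93 FPKM in the controls to 1.47, 1.61 and 1.56 after siCyclin K#1 and 2.20, 2.65 and 2.74 after siCyclin K#2. The groups were apart, with a log2 value of -1.26 against the controls (SE 0.21, adjusted p = 0.0016 from limma). EGLN3, a prolyl hydroxylase that marks the hypoxia factor HIF for destruction, fell by 1.25, from 5.95, 5.85 and 4.70 FPKM in the controls to 1.35, 1.74 and 1.66 after siCyclin K#1 and 2.80, 3.49 and 3.27 after siCyclin K#2 (adjusted p = 0.010 from limma). MIR100HG, a noncoding RNA whose introns hold microRNA genes, fell by 1.21 (adjusted p = 0.023 from limma), but its libraries were spread, at 1.70, 2.75 and 2.33 FPKM with scrambled siRNA, 0.982, 1.04 and 1.34 after siCyclin K#1 and 0.339, 1.08 and 0.995 after siCyclin K#2, and the call was lost without scrambled replicate 2 or 3. The libraries are not stated to keep strand, so reads of a gene overlapping such a noncoding RNA on the other strand cannot be told apart from its own. SNHG14, a noncoding RNA that hosts small nucleolar RNAs, fell by 0.95, from 4.09 ± 0.855 FPKM to 2.43 ± 0.493 and 1.73 ± 0.0924 (SD, n = 3 each). AIG1, an enzyme that cleaves fatty acid esters, fell by 0.99, and PRELID2, of a family of mitochondrial lipid carriers, by 0.97, both with adjusted p-values from limma of 0.0025 or lower. SPATA5, an ATPase of ribosome assembly, fell by 0.93, a call that was lost when any of the scrambled replicates was left out. In AIG1 and SPATA5 the siCyclin K#1 libraries lay below the siCyclin K#2 libraries, at 1.33 ± 0.0506 against 2.01 ± 0.107 and 1.19 ± 0.0844 against 2.15 ± 0.125 FPKM (SD, n = 3 each).

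The members with the highest levels had both large and small changes. TNS3, a tensin that links integrins to actin, rose by 1.37 (SE 0.05, adjusted p = 3.1e-07 from limma), from 22.6, 23.2 and 23.4 FPKM in the controls to 59.0, 60.6 and 62.8 after siCyclin K#1 and 62.0, 56.3 and 58.4 after siCyclin K#2. APP, the amyloid precursor protein and the member with the highest mean at 67.6 FPKM, was at 55.7, 64.2 and 61.6 FPKM with scrambled siRNA, 66.1, 72.2 and 77.0 after siCyclin K#1 and 73.6, 63.5 and 74.6 after siCyclin K#2, with a log2 fold change of 0.23 (adjusted p = 0.045 from limma). Its groups overlapped, and the call was lost in 7 of the 9 fits that left out a library. SUCLG2, a subunit of succinyl-CoA ligase, rose by 0.28 (adjusted p = 0.013 from limma), a call lost without scrambled replicate 2. TJP1, a scaffold of tight junctions, and ASAP1, an activator of Arf GTPase activity, had log2 fold changes of 0.12 and -0.18 that did not pass.

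The members were then grouped by what they are known to do, with lists chosen while earlier results of these data were known. The adhesion, matrix and polarity list had 19 members, of which 12 rose, 0 fell and 7 did not pass, with a median log2 fold change of 0.48 beside 0.39 for all members. Over all 414 members 49.8% were called higher and 6.28% lower, and the counts of this and the following lists are to be read against these shares. PCDH9, LPP, CDH4 (a classical cadherin, 1.56), TENM3 (a teneurin, 1.47) and SDK1 (an immunoglobulin-type adhesion protein, 1.46) had the greatest rises. SPOCK1, a proteoglycan, was the lowest of the list at 0.01 and did not pass, and its sign turned under other scalings and when single libraries were left out. With siCyclin K#1 17 of the 19 rose, beside 62.3% of all members and 26.8% of all features. With siCyclin K#2 13 did, beside 56.3% and 19.8%.

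The list of actin, microtubule and spectrin cytoskeleton genes had 22 members with a median of 0.17, of which 10 rose and 2 fell. SVIL, the actin-binding supervillin, rose by 1.68, from 6.17 ± 0.374 FPKM to 27.8 ± 0.686 and 14.5 ± 0.673 (SD, n = 3 each), and MYO10, a motor of filopodia, by 0.99. NAV3 and DST, a spectrin-family linker, fell, by 1.26 and 0.28, while LIMCH1, an activator of myosin, had -0.51 and did not pass.

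Among kinases, phosphodiesterases, receptors and adaptors of signaling, 12 of 20 members rose and 1 fell, with a median of 0.59. Of the phosphodiesterases in the list, which break down cyclic nucleotides, PDE3A rose by 1.65, PDE7B by 1.52, PDE4B by 0.87 and PDE4D by 0.69. PDE3A went from 1.49, 1.57 and 1.67 FPKM in the controls to 7.06, 7.42 and 7.56 after siCyclin K#1 and 3.46, 3.67 and 3.68 after siCyclin K#2, with no overlap between the 3 groups. IGF1R, the receptor of insulin-like growth factor, rose by 0.92, and PTK2, the focal adhesion kinase, by 0.58. PRKCE, a protein kinase C, fell by 0.44, and NRG1, a ligand of ERBB receptors, had -0.21 and did not pass.

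Transcription and chromatin genes had 20 members with a median of 0.42, of which 10 rose, 2 fell and 8 did not pass. JARID2, a partner of the Polycomb repressive complex, rose by 1.43, from 2.85, 2.79 and 2.72 FPKM in the controls to 8.86, 9.24 and 8.36 after siCyclin K#1 and 6.68, 6.75 and 6.75 after siCyclin K#2. NFIA and NFIB, factors of the nuclear factor I family, rose by 0.70 and 0.55, while RUNX1 and ZNF385D fell by 0.81 and 0.73. Membrane traffic and lipid transfer had 16 members with a median of 0.32, 6 of them higher and 2 lower. TRAPPC9, a subunit of a tethering complex, rose by 1.10 and SNX29, a sorting nexin, by 0.91. The 2 that fell were ATG7, an enzyme of autophagy, by 0.56, and WDFY3, an adaptor for protein aggregates, by 0.45, while ATG10, an autophagy enzyme that is on no list, rose by 0.77. Of the 4 members on the RNA-binding list, which does not hold RBFOX3, EIF4G3, a translation initiation factor, rose by 0.60 and the other 3 did not pass.

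Common fragile sites are regions, often inside very long genes, that break when DNA replication is slowed. Of 12 members on the list of such sites 7 rose and 0 fell, with a median of 0.59, and several stand in the lists above as well (LPP, SDK1, PARD3B, TBL1X and DIAPH2). WWOX, an oxidoreductase gene at one of the best known sites, had 0.59 and did not pass over both siRNAs. Its log2 fold changes were 1.12 with siCyclin K#1 and 0.06 with siCyclin K#2, which differed in the direct test (adjusted p = 0.0001 from limma). TEAD1 had -0.95 and did not pass over both siRNAs, although it fell by 1.57 with siCyclin K#1 (adjusted p = 9.9e-06 from limma), and THADA had -0.02, with a sign that turned without siCyclin K#2 replicate 2 or 3.

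**Figure D4:**
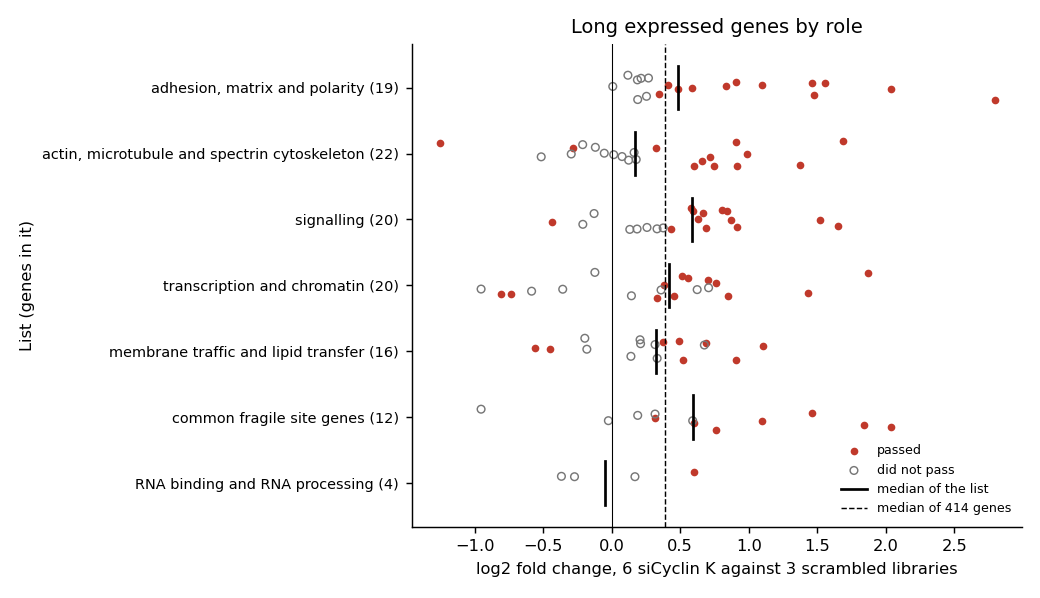
Log2 fold change of the members in each of the lists described, with the 6 siCyclin K libraries against the 3 scrambled libraries; filled points passed at an adjusted p under 0.05 from limma, open points did not, black bars are list medians and the dashed line is the median of all 414 members, 0.39. List medians run from -0.05 in the 4 RNA-binding genes to 0.59 in signaling and fragile site genes.

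Each siRNA was then set against the same scrambled libraries, so that both comparisons share their controls. With siCyclin K#1, 258 members (62.3%) rose and 60 (14.5%) fell, where 26.8% and 18.1% of all features were called, and 36.5% and 27.8% of those with a mean of at least 1 FPKM. Past 3-fold, 30 members were called higher and 3 lower, beside 3.19% and 1.48% of all features and 2.94% and 1.28% of those with a mean of at least 1 FPKM. With siCyclin K#2, 233 members (56.3%) rose and 38 (9.18%) fell, where 19.8% and 15.2% of all features were called, and 31.1% and 22.4% of those with a mean of at least 1 FPKM. Past 3-fold, 10 members were called higher and 0 lower, beside 1.08% and 0.860% of all features and 1.24% and 0.427% of those with a mean of at least 1 FPKM. The median log2 fold change of the members was 0.49 with siCyclin K#1 and 0.36 with siCyclin K#2, against 0.06 and 0.04 in the shorter genes.

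The siRNAs were also tested against each other. With siCyclin K#1, 137 members (33.1%) were higher and 90 (21.7%) lower than with siCyclin K#2, where 17.1% and 12.3% of all features were called, and at a mean of at least 1 FPKM 23.7% and 20.8%. CCNK itself differed by -0.06 and did not pass (adjusted p = 0.73 from limma). The members that were highest with siCyclin K#1 relative to siCyclin K#2 were LPP (1.64), HMCN1 (1.56), LSAMP (1.5) and PDGFD (1.46), and the lowest were PPP3CA (-1.73), RBPJ (-1.38), STK3 (-1.25) and TEAD1 (-1.24).

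LSAMP was at 0.542, 0.629 and 0.609 FPKM with scrambled siRNA, 3.83, 3.99 and 4.43 after siCyclin K#1 and 1.53, 1.22 and 1.41 after siCyclin K#2. HMCN1, an extracellular matrix protein of the hemicentin family, was at 0.319 ± 0.0374, 2.06 ± 0.0707 and 0.631 ± 0.0455 FPKM (SD, n = 3 each), and its mean over all libraries, 1.003 FPKM, was the closest to the threshold of any member. PDGFD, a platelet-derived growth factor ligand, was at 13.5, 12.5 and 13.6 FPKM with scrambled siRNA, 50.9, 50.7 and 53.5 after siCyclin K#1 and 19.9, 18.1 and 18.4 after siCyclin K#2. For these genes both siRNAs lay above the controls and siCyclin K#1 lay above siCyclin K#2 without overlap. Over both siRNAs HMCN1 and PDGFD passed with adjusted p-values of 0.025 and 0.047 from limma, and these calls were lost in 3 and 6 of the fits that left out a library, which included each fit without a scrambled library. The 5 fibroblast markers checked had sums between 5.58 and 6.37 FPKM in the controls, between 19.9 and 22 after siCyclin K#1 and between 7.66 and 7.90 after siCyclin K#2, with COL1A1 at 2.03 ± 0.218, 14 ± 0.572 and 3.19 ± 0.0999 FPKM (SD, n = 3 each). LUM was at 0.356 ± 0.0521, 2.28 ± 0.587 and 0.318 ± 0.0206 FPKM (SD, n = 3 each) and PDGFRA at 3.52 ± 0.2, 4.64 ± 0.154 and 4.22 ± 0.147 FPKM (SD, n = 3 each). COL1A2 was at or below 0.0111 and DCN at or below 0.0919 FPKM. Their part in the difference between siRNAs was not tested.

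PPP3CA, the catalytic subunit of the phosphatase calcineurin, was at 18.7, 16.8 and 19.8 FPKM with scrambled siRNA, 4.74, 4.87 and 4.78 after siCyclin K#1 and 16.1, 16.4 and 15.8 after siCyclin K#2 (difference between siRNAs -1.73, SE 0.06, adjusted p = 4.6e-07 from limma). RBPJ, the DNA-binding factor of Notch signaling, was at 7.34, 6.91 and 6.81 FPKM with scrambled siRNA, 2.93, 3.04 and 2.96 after siCyclin K#1 and 7.43, 8.21 and 8.20 after siCyclin K#2, so that it fell with siCyclin K#1 and rose slightly with siCyclin K#2 (log2 fold changes -1.21 and 0.18, adjusted p = 6.5e-07 and 0.046 from limma). With siCyclin K#2 PPP3CA fell by 0.19 only (adjusted p = 0.039 from limma). STK3 and TEAD1, a kinase and a transcription factor of Hippo signaling, were also low with siCyclin K#1, at 0.697 ± 0.0553 against 1.69 ± 0.0837 FPKM with scrambled siRNA for STK3, and 10.6 ± 1.78 against 31.6 ± 1.10 for TEAD1 (SD, n = 3 each). With siCyclin K#2 they had log2 fold changes of 0.08 and -0.33 that did not pass. None of these 4 genes passed over both siRNAs, where the adjusted p from limma was 0.075 or higher, and in that fit the gap between the siRNAs counts as spread.

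Matches to the siRNA seeds were counted in the longest annotated 3′ UTR of each gene (GENCODE 29), for 403 members. The match to the seed of siCyclin K#1 reads GTGATAA and that of siCyclin K#2 reads TACAGGT. Each was present in 78 members, or 19.4%, against 10.6% and 13.7% of the 8791 shorter genes with a 3′ UTR, whose UTRs were shorter, with a median of 1386 bases against 2627. Of the 4 lowest members in the direct test, PPP3CA, RBPJ and STK3 held a GTGATAA match and TEAD1 did not, and of the 4 highest LPP alone held a match, to TACAGGT. The sites of these genes other than STK3 are shown with 8 bases on each side and the match in capitals.
PPP3CA, siCyclin K#1 seed match at chr4:101024976-101024982, minus strand: taagtacaGTGATAAagcatcta
RBPJ, siCyclin K#1 seed match at chr4:26434626-26434632, plus strand: cctgtgttGTGATAAatgtttgc
TEAD1, siCyclin K#2 seed match at chr11:12940439-12940445, plus strand: caagatgtTACAGGTcacaatga
LPP, first siCyclin K#2 seed match at chr3:188875200-188875206, plus strand: aaagaaatTACAGGTgggatatg
LPP, second siCyclin K#2 seed match at chr3:188881846-188881852, plus strand: ggacacttTACAGGTtatacata

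The median log2 difference, siCyclin K#1 minus siCyclin K#2, was 0.14 in the 325 members without a GTGATAA match and -0.07 in the 78 with at least 1. Of those with a match 43.6% passed as lower with siCyclin K#1 in the direct test and 19.2% as higher, while of those without a match 16.9% were lower and 36.6% higher. In the shorter genes the median differences were 0.04 without and -0.16 with a match. There the shares that passed as lower were near those of the members, at 41.2% with a match and 19.4% without one. The shares that passed as higher were smaller than in the members, at 13.5% with a match and 26.4% without one. Against scrambled siRNA, members with a match had a median of 0.27 with siCyclin K#1 and 0.40 with siCyclin K#2, and members without one 0.52 and 0.36. For the TACAGGT match of siCyclin K#2 the median difference was 0.22 in members with and 0.09 in members without it, against 0.03 and 0.03 in the shorter genes. The 14 members with 2 or more GTGATAA matches had a median of 0.00 and 42.9% of them passed as lower, beside -0.09 and 43.75% of the 64 with 1 match. In the shorter genes the medians were -0.18 and -0.16, and 43.3% and 40.9% passed as lower. Of the sites printed, those of PPP3CA and RBPJ lie in genes that were low with siCyclin K#1, while TEAD1 was low with siCyclin K#1 although its match is to the other seed. A match is a description of the sequence, these counts were not tested, and UTR length differs between genes with and without a match (medians 4326 and 2350 bases in members for GTGATAA).

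**Figure D5:**
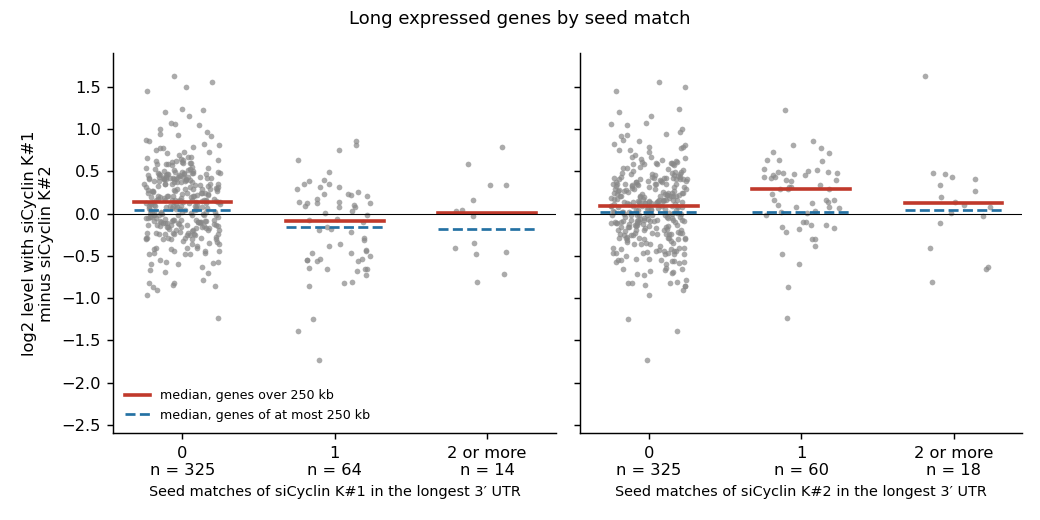
Log2 level with siCyclin K#1 minus that with siCyclin K#2 for each member (gray points), by the number of matches to the seed of siCyclin K#1 (left) or siCyclin K#2 (right) in the longest 3′ UTR; red bars are medians of members and dashed blue bars medians of genes of at most 250 kb. On the left the median goes from 0.14 without a match to -0.09 with 1 match and 0.00 with 2 or more, and on the right from 0.09 to 0.29 and 0.12.

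The genes nearest to the thresholds are given for both sides. EHMT1, UGGT2 and GRK5, just over 250 kb at 251.1 to 252.2 kb, had log2 fold changes over both siRNAs of 0.51, -0.21 and 0.07. CDYL, TASP1 and CWC27, just under it at 249.4 to 249.8 kb, had 0.30, 0.51 and 0.09. At the level threshold HMCN1, CPNE4 and LINC01481 stood just inside with means of 1.003, 1.01 and 1.01 FPKM and log2 fold changes of 1.59, 1.3 and 0.32, and HHAT, THSD7A and DNAH14 just outside with means of 0.989, 0.990 and 0.99972 FPKM and log2 fold changes of 0.72, 2.88 and 0.59. Another 54 features that join a gene over 250 kb with an overlapping gene reached the level too and were not counted as members, since their value covers more than 1 gene. Of these 54 features 20 rose and 6 fell over both siRNAs at an adjusted p under 0.05 from limma, with a median of 0.28. Among features with a mean of at least 1 FPKM 25.2% rose and 16.9% fell, and among members 49.8% and 6.28%.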

How the data were processed

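RNA of A549 cells was sequenced in 9 libraries (3 per group) as paired reads of 150 bases. The FPKM values were deposited by the authors, made with StringTie 1.3.3b per the labels and methods. The aligner, annotation release and strand setting are not given in the sources used here. Depth was read from the FPKM steps: 89.27% of low values were whole reads or fragments within 0.05. FPKM divides by exon length, so it does not measure the span of introns.

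Each file held 56252 features. The 25125 loci with no reference gene were left out, and the 1344 features joining several genes were tested but not counted as members. Features with at least 0.1 FPKM in at least 3 libraries (21048) were fitted as log2(FPKM + 0.1) with limma 3.58.1 (R 4.3.3; lmFit, eBayes with trend) and adjusted by Benjamini-Hochberg over all of them. A fold change is therefore on the log2(FPKM + 0.1) scale and understates changes of low genes. One fit set 6 against 3 libraries, and another kept 3 groups. The fits were tested on simulated data. Spans came from the tables, and exons, introns and UTRs from GENCODE 29 (Python 3.11.15, pandas 2.3.3, scipy 1.17.1).

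The members and lists were chosen with earlier results of these data known. Named members were, among members that passed with all treated libraries on one side of the controls, the 8 with the greatest rise and the 8 with the greatest fall, then the 4 at each end of the difference between siRNAs, the 5 longest, the 5 highest, the 2 at each end of each list and the 3 on each side of each threshold. CDH4, TENM3, SDK1, MYO10, DST, PDE4B, IGF1R, PTK2, NFIA, NFIB, ZNF385D, TBL1X, PARD3B, DIAPH2, WWOX and ATG10 were named after their values were seen. Alternatives changed the pseudocount, filter, scaling, variance trend, choice of members, replicate block and libraries. One list of genes is not reported here. A limma-voom fit on the recovered reads was chosen after seeing the data.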

Additional observations from a re-analysis of the deposited data

Results flagged for a closer look

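Of 51 members picked by the naming rule, 34 differed between siCyclin K#1 and siCyclin K#2 in the direct test at an adjusted p under 0.05 from limma. In the same test 33.1% of all 414 members were higher and 21.7% lower with siCyclin K#1. Of all features tested 17.1% were higher and 12.3% lower, and 23.7% and 20.8% of those with a mean of at least 1 FPKM. The values in brackets are log2 levels with siCyclin K#1 minus those with siCyclin K#2. The test compared 3 libraries with 3. The members most in deficit with siCyclin K#1 were PPP3CA (-1.73), RBPJ (-1.38), STK3 (-1.25), TEAD1 (-1.24), EGLN3 (-0.96), SPATA5 (-0.81), LIMCH1 (-0.78) and NAV3 (-0.67). Smaller deficits were found for AIG1 (-0.56), NRG1 (-0.47), DOCK10 (-0.45), RBFOX2 (-0.36), ASAP1 (-0.24), WDFY3 (-0.19), SUCLG2 (-0.17) and EIF4G3 (-0.16). The members most in excess with siCyclin K#1 were LPP (1.64), HMCN1 (1.56), LSAMP (1.5), PDGFD (1.46), PDE3A (1.01), PDE7B (0.96), SVIL (0.93), GRIK2 (0.86) and PCDH9 (0.79). Smaller excesses were found for TRAPPC9 (0.73), RFX3 (0.72), ARHGEF3 (0.41), SPOCK1 (0.40), JARID2 (0.38), CAMK1D (0.37), SNX29 (0.35), THADA (0.32) and TJP1 (0.25). PPP3CA, RBPJ, STK3 and TEAD1 were chosen as the lowest and LPP, HMCN1, LSAMP and PDGFD as the highest in this same test, so their places at the ends of the list follow from that choice.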

How the results depend on the processing

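The median log2 fold change of the members stayed above 0 in each comparison with scrambled siRNA and in every setting run, with main values of 0.39 over both siRNAs, 0.49 with siCyclin K#1 and 0.36 with siCyclin K#2. In that order it was 0.32, 0.42 and 0.30 after median-ratio rescaling, 0.28, 0.35 and 0.28 after quantile normalization, 0.34, 0.43 and 0.31 with a pseudocount of 0.5, and 0.30, 0.38 and 0.27 with a pseudocount of 1. With other members it was 0.59, 0.66 and 0.45 over 500 kb, 0.35, 0.46 and 0.33 at a mean of at least 2 FPKM, 0.33, 0.38 and 0.29 chosen on the scrambled libraries alone, and 0.34, 0.42 and 0.30 at 1 FPKM or more in each group. Over 200 kb it was 0.43 with siCyclin K#1 and 0.32 with siCyclin K#2. Leaving out each library gave 0.37 to 0.40, 0.48 to 0.50 and 0.35 to 0.37, and the share of members lower over both siRNAs was then 4.11% to 7.0%, with 4.11% without each scrambled library. The share of members higher over both siRNAs was 44.4% after median-ratio rescaling, 43.0% after quantile normalization and 49.9% in the limma-voom fit. The share past the fold change depended on the settings. Over both siRNAs, siCyclin K#1 and siCyclin K#2 it was 16.2%, 21.3% and 14.5% at a fold change over 2. It was 1.93%, 4.11% and 0.725% with a pseudocount of 0.5, and 0.966%, 3.14% and 0.0% with a pseudocount of 1. Shares over all features at these settings are not given here, so these values cannot be read as an excess of the members. SPOCK1 (0.01) changed sign after median-ratio rescaling (-0.054) and quantile normalization (-0.11), and went from -0.093 to 0.14 when each library was left out. THADA (-0.02) went from -0.063 to 0.015 when each library was left out, with values above 0 without siCyclin K#2 replicate 2 or 3. Of 1053 values of named members under other settings, 41 lost and 2 gained their call. The cause was not tested.

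Same-numbered libraries did not deviate together (correlations -0.0711 to 0.0379 over 11243 features). The labels do not say whether the numbers pair the samples, and these correlations cannot settle it. With the replicate number as a block, 41.8% of members were higher and 4.83% lower over both siRNAs, 61.4% and 14.3% with siCyclin K#1, 53.1% and 8.21% with siCyclin K#2, and 31.6% and 20.8% between the siRNAs. Loci without a reference gene inside the members carry no coordinates, so the alternatives on them were not run.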
